A study of Sus scrofa with 8 samples.

Results

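Mucosa from a peritoneum-lined neobladder was compared with the normal peritoneum from which such a lining is made, in 4 of the 8 samples of a study in Guizhou minipigs aged 8 months. Surgeons form a neobladder out of ileum to hold urine once a bladder is removed. By its title, the study replaced the mucosa of such a pouch with autologous peritoneum. The groups compared were 2 libraries of mucosa from the experimental neobladder, called the lined neobladder here, and 2 libraries of normal peritoneum, all from the same strain and age. The remaining samples were 2 libraries of native bladder mucosa, shown as a reference, and 2 of control neobladder mucosa, which entered the model only. The labels do not state which layers of each tissue were sampled, the time since surgery, or how the control reservoir was lined. Nor do they state whether the libraries of a group came from separate animals, so p-values measure only the spread between these samples, which may be technical. The comparison covered 16549 expressed genes of the 31907 in the files, and asked what of the peritoneal profile was lost, what was gained and what was retained.

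The peritoneum is a single layer of mesothelial cells on a basement membrane, over a bed of connective tissue that holds fibroblasts, collagen and elastic fibres, fat, vessels and nerves. Mesothelium comes from mesoderm and keeps a mixed state, with keratins as well as vimentin. The bladder is lined by urothelium, a stratified epithelium sealed by claudins and covered by plaques of uroplakins, which stands on a lamina propria and smooth muscle. HOX genes are transcription factor genes set in clusters, and adult connective tissue keeps a combination of them that marks its place along the body axis.

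RNA was measured as counts per gene. Totals were 7939291 and 9266108 counts in the peritoneum libraries and 10280848 and 9920502 in the lined neobladder libraries. Levels are given as CPM, counts scaled to a common library total, replicate 1 before replicate 2, and are not corrected for gene length, so they are compared between samples and not between genes. A gene was called when edgeR's quasi-likelihood test gave a Benjamini-Hochberg adjusted p under 0.05. Log2 fold changes are the lined neobladder minus peritoneum, ± the standard error (n = 2 libraries a group). Where 1 group had 0 counts in both libraries, the fold is a lower bound against 3 counts over that group, and where it had 1 to 3 counts the ratio is given with an exact 95% interval, both of which cover counting error only. In tissue samples such as these, fewer cells of a type and less RNA per cell cannot be told apart.

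WT1, a transcription factor of mesothelium, stood at 27.7 and 25.3 CPM in peritoneum and 0 and 0.0927 CPM in the lined neobladder, and UPK2, a uroplakin, stood at 1.12 and 0.802 CPM against 334 and 1142 CPM. CALB2, calretinin, another mesothelial marker, had 0 counts in all 8 libraries, and MSLN, UPK3B, LRRN4, ITLN1 and PRG4 were not matched by symbol and are not analysed here. ACTA1, the actin of skeletal muscle, had 6 and 4 counts in peritoneum and 2 and 0 in the neobladder. FABP6, which binds bile acids in the ileum, was found at 43.6 and 39.1 CPM in peritoneum and 29.3 and 29.8 CPM in the neobladder, where it was not called (log2 fold change -0.49 ± 0.79, adjusted p = 0.695). ACTA1 and FABP6 were named after their values were seen, and other genes of these tissues were higher. Of 27 tested genes of intestinal epithelium 5 were higher and 2 lower, and of 11 of skeletal muscle 2 were higher and 1 lower. The 25.9 and 27.3% called are near the 24.2% of all tested genes.

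Of the 16549 genes, 3998 were called (24.2%), 2044 higher in the lined neobladder (12.4%) and 1954 lower (11.8%). The libraries of the groups did not overlap in any of these 3998, but neither did they in 11804 of all tested genes (71.3%), so separation of 2 against 2 libraries alone says little. Among called genes 1008 were over 8-fold higher and 807 over 8-fold lower, and the smallest called log2 difference was 0.99. The median log2 fold change of all tested genes was -0.0061. In 160 genes a level of 5 CPM or more in the neobladder stood against at most 3 counts over both peritoneum libraries, and in 61 genes the reverse held. When 1 library was left out, fewer genes were called: 2096 without experimental replicate 1, 1762 without experimental replicate 2, 2276 without peritoneum replicate 1 and 2394 without peritoneum replicate 2, and 43.6 to 55.5% of the 3998 calls were among them, with no call in the opposite direction. The group left with 1 library is then assumed to vary like the others. Below, counts or adjusted p-values "by omission" are given in that same order.

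**Figure D1:**
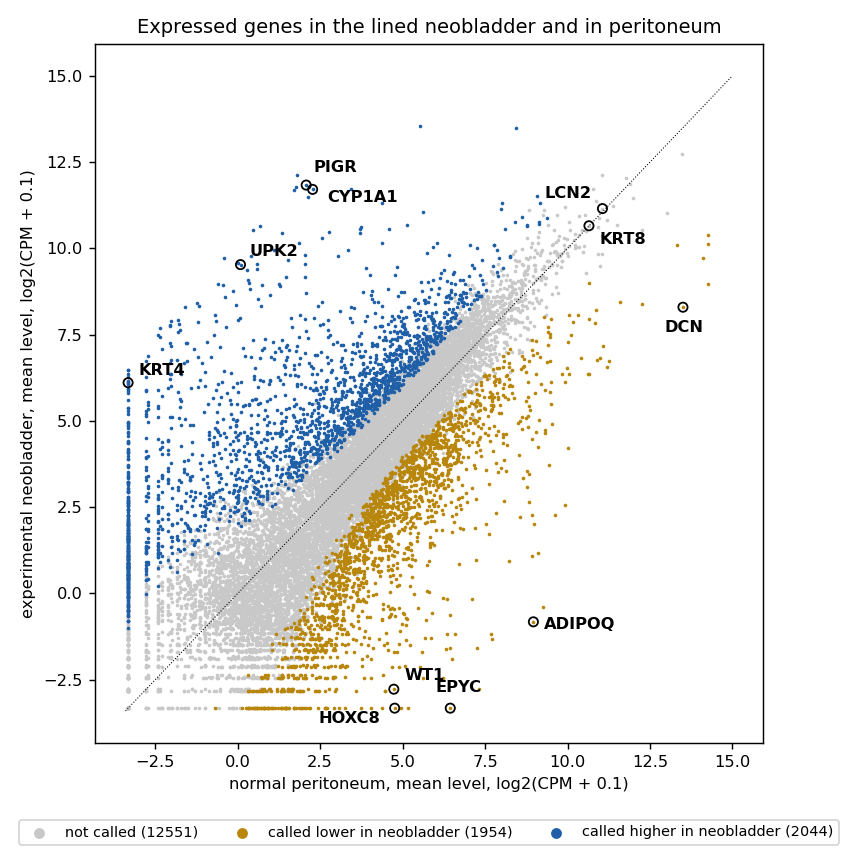
Mean level of each tested gene in normal peritoneum (horizontal axis) and in the lined neobladder (vertical axis), both as log2(CPM + 0.1), with 1 point per gene. Blue points are the 2044 genes called higher in the neobladder, gold points the 1954 called lower and grey points the 12551 not called, and named genes are ringed. UPK2 and PIGR lie far above the diagonal, EPYC and ADIPOQ far below it, and KRT8 and LCN2 on it.

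**Figure D2:**
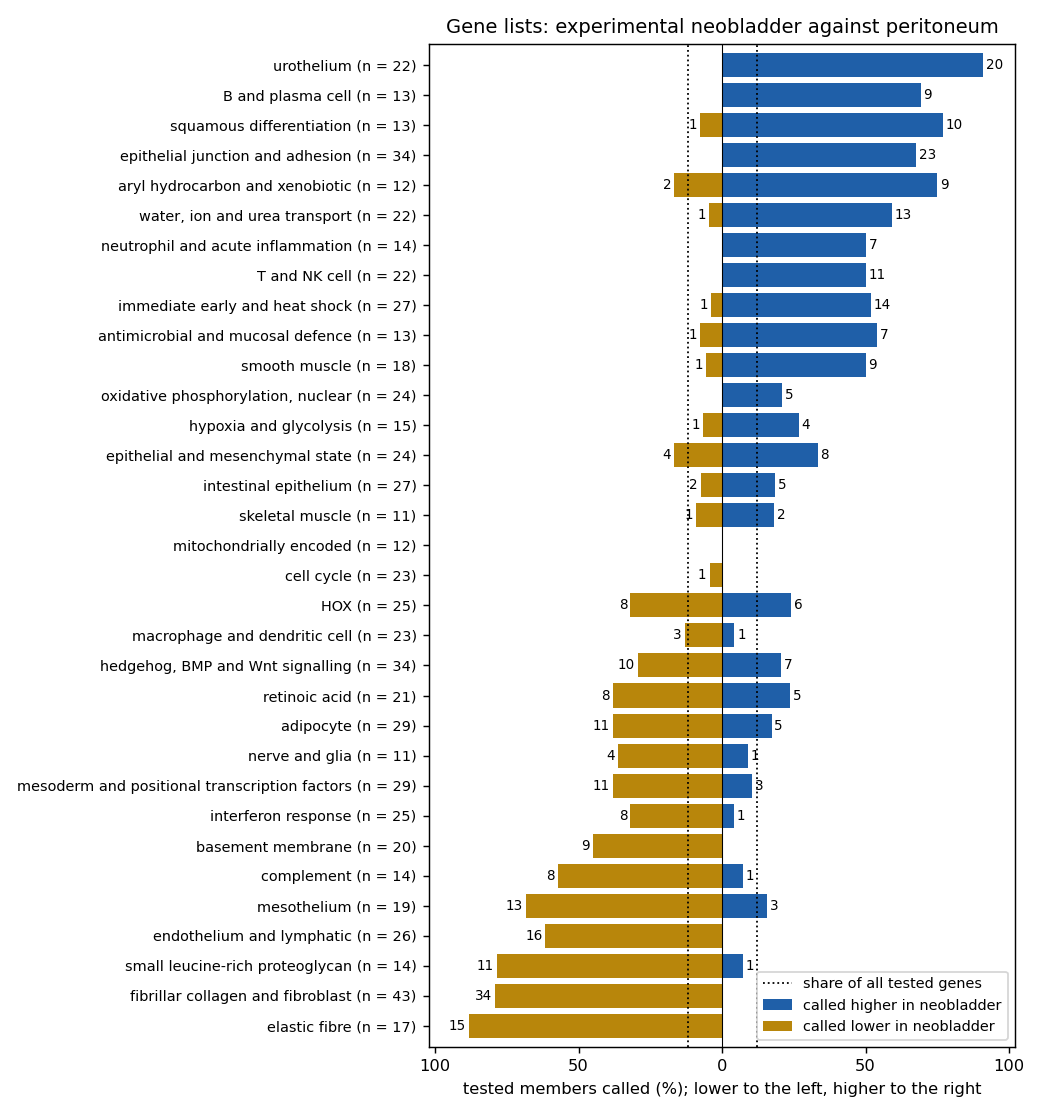
Share of the tested members of each gene list that was called higher (blue, to the right) or lower (gold, to the left) in the lined neobladder than in peritoneum, with the number of members at the bar's end and the number tested beside the name. Dotted lines mark the share over all tested genes, 12.4% higher and 11.8% lower. The list of urothelium genes holds the largest share of higher calls, 20 of 22, and the elastic fibre list the largest share of lower calls, 15 of 17, among the lists with at least 10 tested members.

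The 12 largest gains by fitted fold change, among called genes with a symbol and a mean of 5 CPM or more over the 4 libraries, were genes at 0 counts in both peritoneum libraries. They included KRT4, a keratin of stratified mucosa, at 84.1 and 53.6 CPM and so at least 483-fold higher (adjusted p = 3.73e-05). BICDL2, an adaptor of vesicle transport, reached 80.1 and 98.1 CPM (at least 625-fold higher, adjusted p = 3.72e-05). ERN2, an endoplasmic reticulum stress sensor of mucosal epithelia, reached 89.0 and 64.5 CPM (at least 538-fold higher, adjusted p = 0.00023). Membrane proteins of epithelia made up much of the rest: PROM2, a prominin of plasma membrane protrusions, TMC5, a channel-like protein, the adhesion receptor ADGRF1, the ephrin receptor EPHA1 and SYT8, a synaptotagmin. Their bounds ran from 291-fold in EPHA1 to 489-fold in TMC5. The protease PRSS27, the secreted protein SFTA2, the epithelial protein DAPL1 and the collagenase MMP13 completed the 12, the last at 70.3 and 62.5 CPM. Native bladder held all 12, and KRT4 alone among them differed between lined neobladder and native bladder by the same test, at 8.64 and 6.72 CPM in the bladder.

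Urothelial genes were the most uniform gain. Of 22 tested genes of the urothelium list 20 were higher, and their median log2 fold change was 6.88. It was 6.06 when members without counts in a group took their bound instead. The keratins KRT5, KRT13, KRT17 and KRT19 of this list were not matched by symbol and were not tested. UPK2 rose from 1.12 and 0.802 CPM in peritoneum to 334 and 1142 CPM in the lined neobladder (log2 fold change 9.57 ± 0.73, adjusted p = 9.24e-05). UPK3A, another uroplakin of the plaque, rose from 6.83 and 4.81 to 913 and 1604 CPM (log2 fold change 7.76 ± 0.56, adjusted p = 8.98e-05). In both, the neobladder libraries differed from each other, replicate 2 being the higher, while each stood far above both peritoneum libraries. SHH, the signal that basal urothelium sends to the stroma, stood at 0 counts in peritoneum and 28.3 and 29.952 CPM in the neobladder, at least 204-fold higher (adjusted p = 7.33e-05). Further members, chosen for mention after their values were seen, were the basal regulator TP63, 242-fold (95% counting interval 82.6 to 1177) higher, and FOXA1, a pioneer factor of urothelial differentiation, which went from 0.509 and 0.178 to 275 and 364 CPM (log2 fold change 9.84 ± 1.02, adjusted p = 0.000186).

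Not all urothelial genes were absent from peritoneum. The 2 members that were not called were UPK1B and KRT8. UPK1B, a tetraspanin uroplakin, already stood at 309 and 573 CPM in peritoneum, against 468 and 2050 CPM in the neobladder (log2 fold change 1.51 ± 0.69, adjusted p = 0.145), and it was called when no low-count filter was used. Neobladder replicate 1 lay between the peritoneum libraries and replicate 2 above both. UPK1A, the other tetraspanin uroplakin, was by contrast at 0 counts in peritoneum and at 12.1 and 45.5 CPM in the neobladder (at least 202-fold higher, adjusted p = 0.000852). KRT8, a keratin of simple epithelia and mesothelium, stood at 938 and 2272 CPM in peritoneum and 1434 and 1786 CPM in the neobladder, and its difference had a 95% interval of -1.28 to 1.29 on the log2 scale. KRT18, the keratin that pairs with KRT8, was low in peritoneum at 3.06 and 1.51 CPM and reached 95.2 and 181 CPM (log2 fold change 5.92 ± 0.48, adjusted p = 8.83e-05). KRT7, a keratin of both mesothelium and urothelium, was well detected in peritoneum, at 159 and 360 CPM, and rose to 2196 and 2929 CPM (log2 fold change 3.31 ± 0.66, adjusted p = 0.00798). For KRT7, omission gave adjusted p = 0.0254, 0.0447, 0.0874 and 0.0283.

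Squamous genes, which mark the cornified or stratified differentiation of epithelia, were also gained. Of 13 tested, 10 were higher and 1 lower (median log2 fold change 6.07; 4.27 with bounds). KRT6A, KRT14, KRT16, DSC3, SPRR3, SERPINB3 and MAL were not matched by symbol, and CRNN, SBSN and KLK11 had low counts, so none of these was tested. IVL, involucrin, the scaffold of the cornified envelope, rose from 3.26 and 3.03 to 2058 and 4567 CPM (log2 fold change 10.04 ± 0.61, adjusted p = 5.37e-05). CERS3, which makes the long ceramides of barrier lipid, went from 0 counts to 13.5 and 18.3 CPM (at least 111-fold higher, adjusted p = 0.000148). TMPRSS11E, an epithelial serine protease, went from 3 counts in all to 369 and 59.4 CPM, with replicate 1 well above replicate 2. It was 1551-fold (95% counting interval 531 to 7526) higher (adjusted p = 0.00025). Native bladder held IVL at 641 and 444 CPM, CERS3 at 25.8 and 26.8 CPM and TMPRSS11E at 72.9 and 77.9 CPM. By edgeR these were not called between lined neobladder and native bladder (adjusted p = 0.22, 0.769 and 0.629), while KRT4, also of this list, was. The member that was lower was ALOX12B, a lipoxygenase of the epidermal barrier, at 5.20 and 2.14 CPM in peritoneum and 0.254 and 0.0927 CPM in the neobladder (log2 fold change -4.29 ± 1.36, adjusted p = 0.0433), and its call was lost by omission of any 1 library (adjusted p = 0.164, 0.271, 0.214 and 0.063).

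Genes of the junctions that join epithelial cells were gained too. Of 34 tested genes of junctions and adhesion 23 were higher (median log2 fold change 3.38), and the other 11 did not pass the test. EPCAM, the epithelial adhesion molecule, rose from 2.24 and 2.41 to 524 and 431 CPM (log2 fold change 7.67 ± 0.47, adjusted p = 3.73e-05). CLDN7, a claudin of tight junctions, rose from 3.26 and 3.74 to 960 and 1321 CPM (log2 fold change 8.34 ± 0.50, adjusted p = 3.73e-05). RAB25, which recycles membrane in polarised epithelia, was close to silent in peritoneum at 0.204 and 0.178 CPM and stood at 197 and 247 CPM in the neobladder (log2 fold change 10.10 ± 0.66, adjusted p = 2.41e-05). ESRP1, the splicing regulator that sets epithelial transcript forms, had 1 count over the peritoneum libraries and 91.5 and 122 CPM in the neobladder, 2230-fold (95% counting interval 400 to 88130) higher (adjusted p = 3.73e-05).

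Genes that separate epithelial from mesenchymal cells moved in both directions, 8 of 24 tested higher and 4 lower (median log2 fold change 0.28; higher by omission in 6, 6, 5 and 6). These are 33.3 and 16.7%, against 12.4 and 11.8% of all tested genes, so the share called lower is near that of all genes. DESeq2 called 8 higher and 7 lower. On the epithelial side ITGB6, an integrin subunit of epithelia that activates TGF-beta, rose from 0.408 and 0.267 to 112 and 118 CPM (log2 fold change 8.38 ± 0.57, adjusted p = 3.15e-05). The epithelial transcription factor GRHL2 rose from 0.408 and 0 to 42.042 and 53.969 CPM (log2 fold change 7.88 ± 1.20, adjusted p = 0.000449). On the mesenchymal side VIM, vimentin, fell from 1761 and 1469 to 280 and 220 CPM (log2 fold change -2.69 ± 0.44, adjusted p = 0.00236), a call that was lost without experimental replicate 2 (adjusted p = 0.0321, 0.056, 0.0186 and 0.0117 by omission). TGFB3, a TGF-beta ligand, fell from 627 and 337 to 11.951 and 31.992 CPM (log2 fold change -4.46 ± 0.55, adjusted p = 0.000754). CDH1, E-cadherin, was not absent in peritoneum, at 55.1 and 115 CPM, and rose to 753 and 1051 CPM (log2 fold change 3.40 ± 0.76, adjusted p = 0.0145). By omission, CDH1 had adjusted p = 0.0342, 0.0635, 0.111 and 0.0519.

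Transport genes of a urine-facing epithelium were gained in part. Of 22 tested 13 were higher and 1 lower (median log2 fold change 4.33; 3.84 with bounds). SCNN1B and SCNN1G, the beta and gamma subunits of the epithelial sodium channel, went from 1 count and 0 counts over the peritoneum libraries to 105 and 129 CPM and 24.1 and 25.8 CPM, 2450-fold (95% counting interval 439 to 96814) and at least 175-fold higher (adjusted p = 3.59e-05 and 6.34e-05). SCNN1A, the alpha subunit, was detected in peritoneum at 5.40 and 2.76 CPM and was not called, at 11.951 and 5.66 CPM in the neobladder (log2 fold change 1.11 ± 0.59, adjusted p = 0.202). SLC14A1, a urea transporter, had 3 counts over the peritoneum libraries and 142 and 163 CPM in the neobladder, 1065-fold (95% counting interval 364 to 5166) higher (adjusted p = 3.73e-05). AQP3, a water and glycerol channel, rose from 20.2 and 7.22 to 511 and 344 CPM (log2 fold change 4.96 ± 0.50, adjusted p = 0.000287). CA12, a membrane carbonic anhydrase, rose from 4.99 and 6.59 to 383 and 310 CPM (log2 fold change 5.90 ± 0.46, adjusted p = 8.02e-05).

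**Figure D3:**
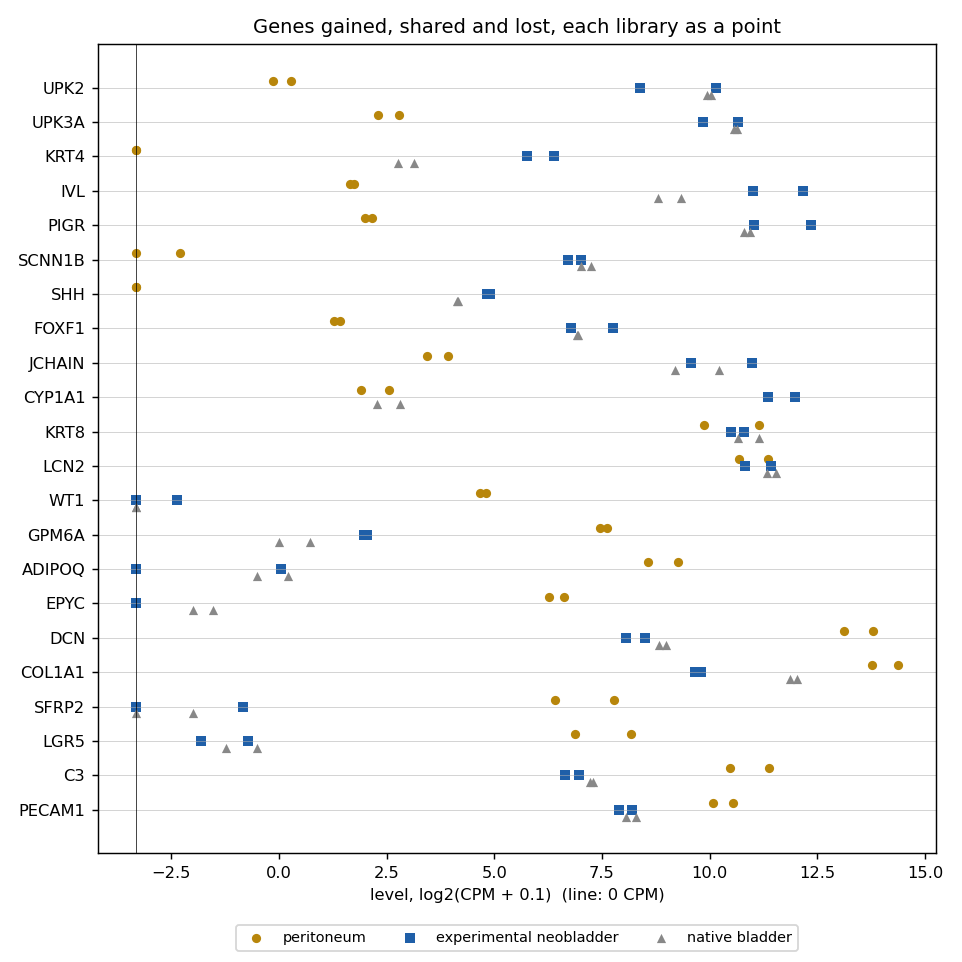
Levels of 22 genes as log2(CPM + 0.1) on the horizontal axis, with 1 point per library for peritoneum (gold circles), lined neobladder (blue squares) and native bladder (grey triangles), and a vertical line at 0 CPM. From UPK2 to CYP1A1 the neobladder libraries lie to the right of the peritoneum libraries, KRT8 and LCN2 overlap, and from WT1 to PECAM1 the neobladder libraries lie to the left.

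Genes of the aryl hydrocarbon receptor, a sensor of foreign and dietary ring compounds, and of drug metabolism were higher in 9 of 12 cases and lower in 2 (median log2 fold change 3.96; lower by omission in 0, 0, 0 and 1). The 75% called higher lay above the 12.4% of all tested genes, and the 16.7% called lower near their 11.8%. CYP1A1, the receptor's best known target, stood at 5.81 and 3.65 CPM in peritoneum and 2623 and 4065 CPM in the lined neobladder (log2 fold change 9.46 ± 0.54, adjusted p = 3.8e-05). AHRR, the receptor's repressor and target, rose from 0.306 and 0.446 to 74.2 and 130 CPM (log2 fold change 8.03 ± 0.58, adjusted p = 3.59e-05). NQO1, a quinone reductase, rose from 22.7 and 25.4 to 1716 and 1303 CPM (log2 fold change 5.97 ± 0.46, adjusted p = 8.02e-05). The pregnane X receptor NR1I2 had 1 count over the peritoneum libraries and 11.6 and 8.99 CPM in the neobladder, 218-fold (95% counting interval 38.7 to 8647) higher (adjusted p = 0.000139). Native bladder held CYP1A1 at 6.87 and 4.71 CPM and NR1I2 at 1.05 and 0.672 CPM, the former overlapping the peritoneum libraries. The comparisons with peritoneum and with bladder share the neobladder libraries.

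Genes of retinoic acid, a vitamin A signal that acts in both urothelium and mesothelium, moved in both directions, 5 of 21 tested being higher and 8 lower (median log2 fold change -0.78, lower by omission in 4, 3, 4 and 5). Calls thus took in 23.8% higher and 38.1% lower, against 12.4 and 11.8% of all tested genes. Among those gained, LRAT, which esterifies retinol for storage, went from 1 count to 26.3 and 61.3 CPM, 905-fold (95% counting interval 162 to 35767) higher (adjusted p = 5.23e-05). CRABP2, which carries retinoic acid to the nucleus, rose from 23.4 and 18.1 to 285 and 229 CPM (log2 fold change 3.63 ± 0.36, adjusted p = 0.000186). The synthesis enzymes differed by form: ALDH1A1 rose from 33.1 and 21.3 to 833 and 356 CPM (log2 fold change 4.45 ± 0.53, adjusted p = 0.000662), while ALDH1A3 fell from 124 and 332 to 6.02 and 3.89 CPM (log2 fold change -5.52 ± 0.66, adjusted p = 0.000736). ALDH1A2, the form of mesothelium, fell from 139 and 129 to 50.009 and 41.4 CPM (log2 fold change -1.55 ± 0.33, adjusted p = 0.00759). By omission, ALDH1A2 had adjusted p = 0.0608, 0.12, 0.0543 and 0.0448. DHRS3, a retinal reductase and the member of this list with the most counts, was not called, at 1250 and 1759 CPM in peritoneum and 551 and 699 CPM in the neobladder (log2 fold change -1.27 ± 0.45, adjusted p = 0.0691), though it was called by DESeq2.

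Mucosal defence genes were gained beside a few that peritoneum already held. Of 13 tested 7 were higher and 1 lower (median log2 fold change 2.35; 3, 7, 3 and 5 were higher by omission). PIGR, the receptor that carries IgA and IgM across epithelium, stood at 3.87 and 4.37 CPM in peritoneum and 5211 and 2083 CPM in the neobladder (log2 fold change 9.79 ± 0.71, adjusted p = 0.000143). TFF3, a trefoil peptide of mucus, rose from 4.89 and 3.39 to 736 and 107 CPM (log2 fold change 6.67 ± 0.89, adjusted p = 0.00188), replicate 1 being the higher in both. SLPI, a protease inhibitor of mucosal fluid, went the other way, from 316 and 154 to 11.019 and 11.9 CPM (log2 fold change -4.36 ± 0.62, adjusted p = 0.00162). LCN2, the iron-chelating lipocalin, and DEFB1, a beta-defensin, were not called and overlapped between groups, LCN2 at 1629 and 2636 CPM in peritoneum and 2733 and 1815 CPM in the neobladder (95% interval -1.23 to 1.41 on the log2 scale) and DEFB1 at 219 and 214 and 273 and 171 CPM (95% interval -1.38 to 1.45).

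Lymphocyte genes were higher in the lined neobladder, B and plasma cell genes in 9 of 13 cases (median log2 fold change 3.82) and T and NK cell genes in 11 of 22 (median 2.53). JCHAIN, the chain that joins IgA and IgM, rose from 14.976 and 10.7 to 2028 and 762 CPM (log2 fold change 6.76 ± 0.70, adjusted p = 0.000533). MZB1, a chaperone of antibody assembly, rose from 0.611 and 1.16 to 90.9 and 45.3 CPM (log2 fold change 6.23 ± 0.67, adjusted p = 0.000278). Both were higher in neobladder replicate 1. CD8A, the coreceptor of cytotoxic T cells, rose from 4.38 and 7.3961 to 61.0 and 40.8 CPM (log2 fold change 3.11 ± 0.42, adjusted p = 0.00084). The chemokine CCL5 rose from 5.09 and 6.24 to 62.3 and 64.8 CPM (log2 fold change 3.48 ± 0.48, adjusted p = 0.00109). The granzyme GZMH rose from 2.95 and 4.72 to 33.1 and 47.9 CPM (log2 fold change 3.39 ± 0.48, adjusted p = 0.00113). Of 14 genes of neutrophils and acute inflammation 7 were higher (median 3.10). Among them, the neutrophil chemoattractant CXCL2 rose from 2.65 and 2.50 to 83.1 and 112 CPM (log2 fold change 5.24 ± 0.37, adjusted p = 3.73e-05). The gelatinase MMP9 rose from 1.12 and 0.624 to 454 and 198 CPM (log2 fold change 8.54 ± 0.61, adjusted p = 4.83e-05). IL1A, an alarm cytokine that epithelial cells also make, had 1 count over the peritoneum libraries and 44.1 and 73.7 CPM in the neobladder, 1225-fold (95% counting interval 220 to 48425) higher (adjusted p = 3.73e-05).

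Of 23 tested genes of macrophages and dendritic cells 1 was higher and 3 lower (4.35 and 13.04%, the latter near the 11.8% of all tested genes; median log2 fold change 0.045; 2, 1, 2 and 1 were lower by omission). DESeq2 called 3 higher and 3 lower. The complement C1q chains, made mostly by tissue macrophages, were not called: C1QB stood at 255 and 358 CPM in peritoneum and 264 and 341 CPM in the neobladder (95% interval of the log2 difference -1.12 to 1.08), and C1QA at 250 and 358 and 387 and 442 CPM (95% interval -0.68 to 1.58). CD74, the invariant chain of antigen presentation, stood at 1448 and 1324 and 1339 and 1643 CPM (95% interval -1.02 to 1.23). VSIG4, a complement receptor of resident macrophages, fell from 73.0 and 101.85 to 14.7 and 11.7 CPM (log2 fold change -2.72 ± 0.39, adjusted p = 0.00109), with the scavenger receptors MRC1 and CD163 also lower, at 5.76 and 5.56 CPM against 17.5 and 30.2 CPM in peritoneum for MRC1 (log2 fold change -2.07 ± 0.42, adjusted p = 0.00671) and 25.005 and 12.6 against 63.8 and 65.2 CPM for CD163 (log2 fold change -1.78 ± 0.42, adjusted p = 0.0135). By omission, CD163 had adjusted p = 0.0254, 0.162, 0.0544 and 0.0653. For MRC1, omission gave adjusted p = 0.0606, 0.0728, 0.00982 and 0.0666. CD209, a lectin of dendritic cells and macrophages, was the member that was higher, at 4.07 and 3.52 CPM against 0 and 0.713 CPM (log2 fold change 3.31 ± 0.81, adjusted p = 0.00991).

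Smooth muscle genes were higher in 9 of 18 cases and lower in 1 (median log2 fold change 1.78). ACTG2, the actin of visceral smooth muscle, rose from 1.02 and 6.95 to 692 and 798 CPM (log2 fold change 7.53 ± 0.68, adjusted p = 0.000255). DES, desmin, rose from 9.98 and 7.57 to 85.1 and 143 CPM (log2 fold change 3.70 ± 0.54, adjusted p = 0.00158). ACTA2, the actin of vascular smooth muscle and myofibroblasts, was well detected in all 4 libraries and rose from 524 and 557 to 2778 and 3102 CPM (log2 fold change 2.44 ± 0.48, adjusted p = 0.00588), a call that was lost when either peritoneum library was left out (adjusted p = 0.0327, 0.0472, 0.0789 and 0.066 by omission). The member that was lower was CALD1, caldesmon, which non-muscle cells also make, at 637 and 622 against 323 and 192 CPM (log2 fold change -1.29 ± 0.41, adjusted p = 0.0461). For CALD1, omission gave adjusted p = 0.107, 0.386, 0.177 and 0.163. Which layers were taken with the mucosa is not stated, and the part of sampled muscle in these values was not tested.

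Signals between epithelium and stroma moved in both directions, with 7 of 34 tested genes of the hedgehog, BMP and Wnt pathways higher and 10 lower (median log2 fold change -1.12; lower by omission in 5, 5, 7 and 6). As shares, 20.6% were higher and 29.4% lower, against 12.4 and 11.8% of all tested genes. Beside SHH, described above, BMP5 rose from 3.16 and 1.43 to 29.0 and 20.9 CPM (log2 fold change 3.45 ± 0.44, adjusted p = 0.000586). Several Wnt regulators, some of them from the fibroblast and intestinal lists, were lower. DKK2, a Wnt receptor ligand, fell from 409 and 552 to 2.54 and 1.48 CPM (log2 fold change -7.89 ± 0.65, adjusted p = 0.000148). SFRP2, which binds Wnt proteins, fell from 84.8 and 219 to 0 and 0.464 CPM (log2 fold change -9.33 ± 1.14, adjusted p = 0.000224). SFRP4, of the same family, fell from 736 and 826 to 5.26 and 4.17 CPM (log2 fold change -7.37 ± 0.53, adjusted p = 7.87e-05). RSPO1, an R-spondin that strengthens Wnt signalling, fell from 29.6 and 59.4 to 0.932 and 0.371 CPM (log2 fold change -6.06 ± 0.61, adjusted p = 0.000173), and so did LGR5, an R-spondin receptor better known from crypt stem cells, from 118 and 290 to 0.509 and 0.185 CPM (log2 fold change -9.13 ± 0.74, adjusted p = 4.73e-05).

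The largest losses included matrix, fat and homeobox genes. By fitted fold change the first, by the same rule, was EPYC, epiphycan, a proteoglycan of the small leucine-rich family best known from cartilage, at 76.7 and 97.3 CPM in peritoneum and 0 counts in both neobladder libraries (at least 655-fold lower, adjusted p = 3.73e-05). The serpin SERPINE3 and the homeobox factor ALX1 were also at 0 counts in the neobladder, and stood at 46.3 and 24.6 CPM and 13.5 and 27.6 CPM in peritoneum, at least 267-fold and 155-fold higher there (adjusted p = 0.000296 and 0.000836). MYOC, a secreted glycoprotein of connective tissue, fell from 680 and 532 to 0.848 and 0.464 CPM (log2 fold change -9.82 ± 0.59, adjusted p = 3.7e-05). MATN4, a matrilin of filamentous matrix, fell from 214 and 205 to 0.509 and 0.0927 CPM (log2 fold change -9.35 ± 0.86, adjusted p = 7.56e-05). TNMD, tenomodulin, a membrane protein of tendon and fat, fell from 94.0 and 4.01 to 0.170 and 0 CPM (adjusted p = 0.0075). Its peritoneum libraries lay far apart, and its call was lost without experimental replicate 2 or peritoneum replicate 1 (adjusted p = 0.0379, 0.0537, 0.0723 and 0.00072 by omission). It was also lost by DESeq2 (adjusted p = 0.127) and with the compared groups alone.

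Mesothelial genes were lost in most cases. Of 19 tested 13 were lower and 3 higher (median log2 fold change -3.13). GPM6A, a membrane glycoprotein of mesothelium and neurons, fell from 175 and 195 to 3.81 and 3.99 CPM (log2 fold change -5.56 ± 0.37, adjusted p = 3.73e-05). PTGIS, prostacyclin synthase, fell from 406 and 508 to 11.951 and 10.1 CPM (log2 fold change -5.37 ± 0.37, adjusted p = 4.15e-05). BNC2, a zinc finger factor of mesothelium and its underlying stroma, fell from 83.4 and 124 to 6.70 and 6.58 CPM (log2 fold change -3.96 ± 0.38, adjusted p = 0.000148). WT1, with 556 counts over the peritoneum libraries and 1 over the neobladder libraries, stood 597-fold (95% counting interval 107 to 23614) higher in peritoneum (adjusted p = 0.000235). The 3 members that were higher, KRT18, TCF21 and WNT2B, are not particular to mesothelium. KRT18 is a general keratin of simple epithelium, TCF21 a factor of visceral mesenchyme and WNT2B a stromal Wnt ligand. Some lower members are not particular to mesothelium either: GPM6A is shared with neurons, BNC2 with stroma, and CFI is a complement regulator. TCF21 rose from 1.63 and 3.65 to 41.9 and 39.9 CPM (log2 fold change 3.94 ± 0.48, adjusted p = 0.000513). WNT2B rose from 11.6 and 11.139 to 26.4 and 42.2 CPM (log2 fold change 1.59 ± 0.36, adjusted p = 0.0103). By omission, WNT2B had adjusted p = 0.0194, 0.1255, 0.0651 and 0.0757. The 3 members that were not called were KRT8, CDH2, an adhesion cadherin, and HAS1, a hyaluronan synthase that stood at 3.97 and 2.41 CPM in peritoneum and 4.41 and 5.01 CPM in the neobladder (log2 fold change 0.56 ± 0.63, adjusted p = 0.549).

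Matrix genes were lower in most cases. Of 14 tested genes of small leucine-rich proteoglycans, which coat and space collagen fibrils, 11 were lower and 1 higher (median log2 fold change -4.59). Decorin, DCN, fell from 8965 and 14188 CPM to 266 and 362 CPM (log2 fold change -5.21 ± 0.53, adjusted p = 0.000313). Osteomodulin, OMD, fell from 411 and 553 to 3.64 and 5.75 CPM (log2 fold change -6.68 ± 0.42, adjusted p = 3.73e-05), and asporin, ASPN, from 599 and 491 to 3.64 and 0.649 CPM (log2 fold change -7.97 ± 0.60, adjusted p = 9.17e-05). Lumican, LUM, fell less, from 1025 and 1069 to 330 and 210 CPM (log2 fold change -1.95 ± 0.45, adjusted p = 0.0131). For LUM, omission gave adjusted p = 0.066, 0.183, 0.0655 and 0.0725. The exception, TSKU, tsukushi, a secreted modulator of Wnt and TGF-beta signals, rose from 66.8 and 41.0 to 321 and 722 CPM (log2 fold change 3.27 ± 0.57, adjusted p = 0.00403). By omission, TSKU had adjusted p = 0.00583, 0.0299, 0.0238 and 0.0504.

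Fibrillar collagens and fibroblast genes were lower in 34 of 43 cases (median log2 fold change -2.84), and the other 9 did not pass the test. COL1A1, a chain of type I collagen, fell from 14032 and 21332 to 812 and 890 CPM (log2 fold change -4.38 ± 0.68, adjusted p = 0.00273). COL1A2, its partner chain and the list's member with the most counts, fell from 18528 and 20529 to 1344 and 1309 CPM (log2 fold change -3.88 ± 0.64, adjusted p = 0.00337). For COL1A1, omission gave adjusted p = 0.0451, 0.0456, 0.00951 and 0.0158. The COL1A2 call was lost when either experimental library was left out (adjusted p = 0.0525, 0.0602, 0.0158 and 0.0184 by omission). COL6A3, a chain of beaded-filament collagen, fell from 908 and 1202 to 82.5 and 82.3 CPM (log2 fold change -3.68 ± 0.39, adjusted p = 0.000264). COL16A1, a fibril-associated collagen, fell from 391 and 365 to 27.0 and 37.2 CPM (log2 fold change -3.56 ± 0.37, adjusted p = 0.000224). For COL1A1 the native bladder lay between, at 4144 and 3747 CPM. The same was true of COL1A2, at 4650 and 4776 CPM, though neither gene was called between neobladder and native bladder (log2 differences of -2.21 and -1.83).

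Elastic fibre genes were lower in 15 of 17 cases (median log2 fold change -3.25). Elastin, ELN, fell from 140 and 70.9 to 1.78 and 1.67 CPM (log2 fold change -5.93 ± 0.43, adjusted p = 4.55e-05). LTBP2, which binds fibrillin, fell from 457 and 419 to 12.2 and 10.9 CPM (log2 fold change -5.24 ± 0.42, adjusted p = 8.96e-05). MFAP5, a microfibril protein, fell from 347 and 529 to 5.0009 and 11.8 CPM (log2 fold change -5.71 ± 0.49, adjusted p = 0.000145). The separation of the libraries was wide in each of these. Basement membrane genes were lower in 9 of 20 cases (median -1.19), with fewer calls by omission (2, 2, 5 and 6). LAMB2, a laminin chain, fell from 90.4 and 97.5 to 12.6 and 14.9 CPM (log2 fold change -2.77 ± 0.49, adjusted p = 0.00396). COL4A1, a type IV collagen chain and the list's member with the most counts, fell from 199 and 164 to 87.0 and 72.6 CPM (log2 fold change -1.18 ± 0.37, adjusted p = 0.0443), which no omission of a library left called (adjusted p = 0.179, 0.311, 0.223 and 0.134 by omission).

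Fat cell genes were lower more often than higher. Of 29 tested 11 were lower and 5 higher (37.9 and 17.2%, against 11.8 and 12.4% of all tested genes). The median log2 fold change was -1.24, and 3, 3, 2 and 1 were higher by omission. ADIPOQ, adiponectin, stood at 618 and 381 CPM in peritoneum and 0.932 and 0 CPM in the lined neobladder (log2 fold change -9.99 ± 0.84, adjusted p = 9.13e-05). FABP4, the fatty acid carrier of fat cells, fell from 447 and 312 to 5.51 and 3.62 CPM (log2 fold change -6.37 ± 0.65, adjusted p = 0.00038). CIDEC, a lipid droplet protein, fell from 101.88 and 72.0 to 1.02 and 0.0927 CPM (log2 fold change -7.23 ± 0.79, adjusted p = 0.000249). RBP4, the retinol carrier secreted by liver and fat, fell from 18.1 and 8.47 CPM to 0 counts (at least 100.11-fold lower, adjusted p = 0.00101). The 5 that were higher were, apart from CFD, named after their values were seen. PPARG, the nuclear receptor of fat cells and urothelium, rose from 54.7 and 33.8 to 291 and 393 CPM (log2 fold change 2.95 ± 0.44, adjusted p = 0.00154). The acyl-CoA synthetase ACSL1 rose from 57.3 and 59.5 to 468 and 441 CPM (log2 fold change 2.96 ± 0.56, adjusted p = 0.00557). Malic enzyme ME1 rose from 17.8 and 18.5 to 113 and 129 CPM (log2 fold change 2.74 ± 0.53, adjusted p = 0.00601). For ME1, omission gave adjusted p = 0.0212, 0.031, 0.0494 and 0.0517. By omission, ACSL1 had adjusted p = 0.0238, 0.0224, 0.0512 and 0.0506. The remaining pair were the fatty acid elongase ELOVL6, at 45.2 and 43.6 CPM in peritoneum and 90.2 and 87.8 CPM in the neobladder, and the complement protease CFD, or adipsin, at 422 and 446 and then 1933 and 1277 CPM. They had log2 fold changes of 1.003 ± 0.33 (adjusted p = 0.048) and 1.89 ± 0.57 (adjusted p = 0.0404), and neither call was held when any 1 library was left out (adjusted p = 0.19, 0.201, 0.197 and 0.215 and adjusted p = 0.202, 0.1, 0.195 and 0.163 by omission). How much fat was sampled with the peritoneum is not stated, and its part in other results was not tested.

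Vessel genes were lower in 16 of 26 cases (median log2 fold change -1.78), though only 4, 5, 8 and 9 were called by omission. ERG, a transcription factor of endothelium, fell from 101.77 and 86.1 to 21.953 and 17.1 CPM (log2 fold change -2.27 ± 0.35, adjusted p = 0.00156). ACKR1, the chemokine receptor of venules, fell from 305 and 227 to 56.5 and 50.7 CPM (log2 fold change -2.31 ± 0.36, adjusted p = 0.00165). GPIHBP1, the capillary anchor of lipoprotein lipase, fell from 66.2 and 47.6 to 0.509 and 4.54 CPM (log2 fold change -4.50 ± 0.72, adjusted p = 0.0027). PECAM1, an adhesion protein of endothelium and the member with the most counts, fell from 1486 and 1087 to 294 and 240 CPM (log2 fold change -2.27 ± 0.43, adjusted p = 0.00513), a call lost when either experimental library was left out (adjusted p = 0.0544, 0.0928, 0.0438 and 0.0203 by omission).

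Complement genes were lower in 8 of 14 cases and higher in 1, which was CFD (median log2 fold change -3.41). CFB, a protease of the alternative pathway, fell from 333 and 680 to 5.76 and 2.13 CPM (log2 fold change -6.995 ± 0.81, adjusted p = 0.000887). C3, the central component, fell from 1410 and 2647 to 125 and 99.9 CPM (log2 fold change -4.17 ± 0.55, adjusted p = 0.0011). The regulators fell too, SERPING1, the C1 inhibitor, from 4112 and 5728 to 293 and 380 CPM (log2 fold change -3.87 ± 0.52, adjusted p = 0.001). CFI, factor I, fell from 205 and 325 to 24.1 and 16.5 CPM (log2 fold change -3.71 ± 0.47, adjusted p = 0.000678). Interferon-response genes were lower in 8 of 25 cases and higher in 1 (median -0.75; lower by omission in 4, 3, 5 and 4). OAS1, an antiviral sensor of double-stranded RNA, fell from 53.4 and 75.7 to 3.48 and 3.52 CPM (log2 fold change -4.20 ± 0.38, adjusted p = 0.000104).

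HOX genes were called in both directions. Of 25 tested 6 were higher and 8 lower (24 and 32%, against 12.4 and 11.8% of all tested genes). The other 11 did not pass the test, and the median log2 fold change was -0.87. The HOXC cluster held calls of both kinds. HOXC8 (chr5:19222124-19225734, Sscrofa11.1, RefSeq) stood at 26.2 and 27.8 CPM in peritoneum and 0 counts in the lined neobladder (at least 203-fold lower, adjusted p = 7.86e-05). HOXC9 (chr5:19212490-19215859) stood at 21.0 and 23.2 CPM against 1 count over both neobladder libraries, 500-fold (95% counting interval 89.3 to 19798) higher in peritoneum (adjusted p = 9.13e-05). HOXC6 and HOXC5, which follow HOXC8 in the direction of HOXC4 at the cluster's anterior end (chr5:19250411-19268267), were at 0 counts in the neobladder and at 4.69 and 5.88 CPM and 4.08 and 2.32 CPM in peritoneum (adjusted p = 0.00656 and 0.00746). HOXC11 (chr5:19181580-19189031), next to HOXC9 among the tested genes on the posterior side, was reversed: 0 counts in peritoneum and 4.49 and 3.43 CPM in the neobladder (at least 27.8-fold higher, adjusted p = 0.00231).

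In the other clusters fewer genes were called. HOXB5 fell from 21.2 and 20.4 to 2.03 and 1.85 CPM (log2 fold change -3.41 ± 0.49, adjusted p = 0.0011). HOXA5 fell from 87.8 and 108 to 24.2 and 19.5 CPM (log2 fold change -2.16 ± 0.50, adjusted p = 0.013), whereas HOXA10 rose from 9.88 and 19.1 to 93.7 and 75.3 CPM (log2 fold change 2.54 ± 0.41, adjusted p = 0.00215). HOXD10 and HOXD11 were at 0 counts in peritoneum and at 3.64 and 2.50 CPM and 4.49 and 3.06 CPM in the neobladder, at least 21.6-fold and 26.5-fold higher (adjusted p = 0.00573 and 0.00485). Every called member of paralogue groups 4 to 9 was lower and every called member of groups 10 to 13 higher, the remaining calls being HOXB6 and HOXC4 on the lower side and HOXA11 and HOXB13 on the higher. That split describes the calls and was not tested. HOXC10, untested for low counts, went the other way, with 6 and 6 counts in peritoneum and 1 and 0 in the neobladder. HOXC13, also untested, had 0 and 0 counts in peritoneum and 6 and 3 in the neobladder. Among the HOX genes that were not called, HOXB7 stood at 37.8 and 32.7 CPM in peritoneum and 37.9 and 34.8 CPM in the neobladder (95% interval of the log2 difference -1.02 to 1.11), HOXA7 at 22.9 and 21.5 and 24.8 and 13.6 CPM (-1.12 to 0.71) and HOXA9 at 17.2 and 12.3 and 18.5 and 21.3 CPM (-0.46 to 1.33). Several HOX genes are low, and calls were lost by omission in HOXA5 (adjusted p = 0.0732, 0.123, 0.0368 and 0.0581), HOXA11 (adjusted p = 0.0832, 0.0556, 0.0703 and 0.0251), HOXB6 (adjusted p = 0.0852, 0.095, 0.0335 and 0.0429), HOXB13 (adjusted p = 0.105, 0.145, 0.113 and 0.117), HOXC4 (adjusted p = 0.118, 0.225, 0.0819 and 0.0854) and HOXC5 (adjusted p = 0.0562, 0.061, 0.0435 and 0.0185). By omission 4, 4, 7 and 6 of the 25 were lower and 4, 4, 4 and 5 higher.

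**Figure D4:**
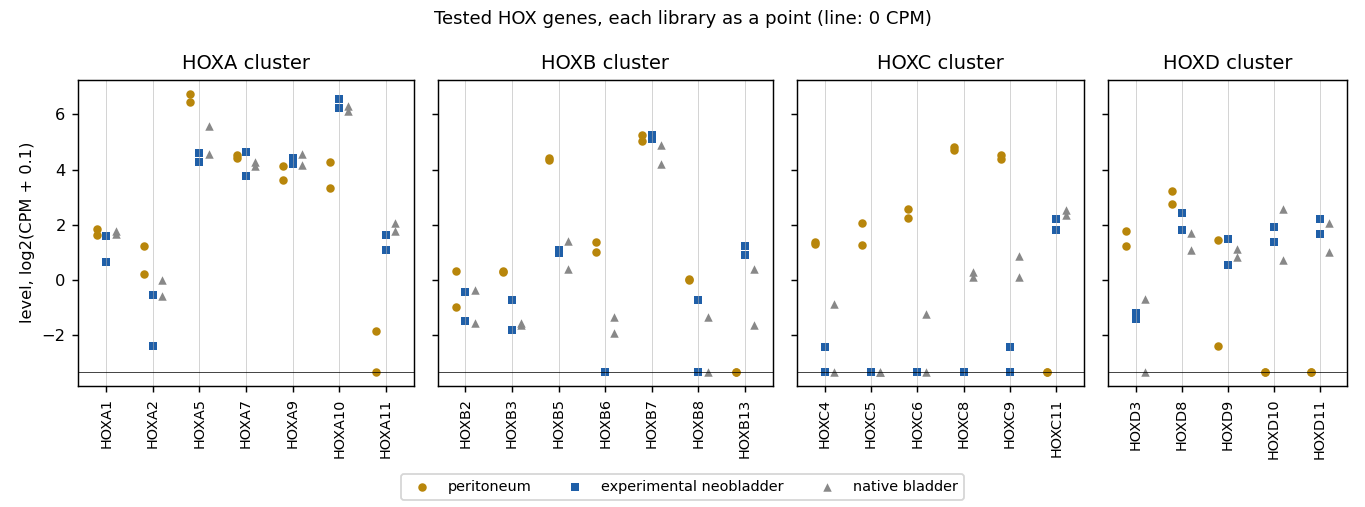
Levels of the 25 tested HOX genes in the 4 clusters as log2(CPM + 0.1), ordered within a cluster by paralogue number from anterior to posterior, with 1 point per library for peritoneum (gold circles), lined neobladder (blue squares) and native bladder (grey triangles), and a line at 0 CPM. In the HOXC cluster the peritoneum libraries lie above the neobladder libraries from HOXC4 to HOXC9 and at 0 for HOXC11, and HOXA7 and HOXB7 overlap.

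Other transcription factors that carry mesodermal or positional identity fell in 11 of 29 cases and rose in 3 (median log2 fold change -1.27). The 10.3% called higher lay under the 12.4% of all tested genes, and the 37.9% called lower above their 11.8%. By omission 5, 5, 7 and 6 were lower. FOXF1, a target of hedgehog in visceral mesenchyme, rose from 2.55 and 2.32 to 110 and 217 CPM (log2 fold change 6.07 ± 0.44, adjusted p = 4.83e-05). The other 2 that rose were TCF21, given above, and FOXF2, at 0 counts in peritoneum and 1.44 and 2.69 CPM in the neobladder (at least 14.5-fold higher, adjusted p = 0.0127, and adjusted p = 0.0331, 0.0779, 0.0505 and 0.0525 by omission). PRRX1, a factor of limb and body wall mesenchyme, fell from 63.0 and 51.1 to 3.56 and 1.76 CPM (log2 fold change -4.41 ± 0.47, adjusted p = 0.000264). GATA6 fell from 66.4 and 72.8 to 4.83 and 9.27 CPM (log2 fold change -3.30 ± 0.44, adjusted p = 0.000873). MEIS1, a HOX cofactor and the list's member with the most counts, fell from 142 and 193 to 64.9 and 74.0 CPM (log2 fold change -1.27 ± 0.38, adjusted p = 0.0348), a call that no omission of a library left standing (adjusted p = 0.224, 0.184, 0.0833 and 0.218 by omission).

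Most genes were not called, 12551 of 16549, and of these 8556 differed by at most 2-fold. That does not make them equal. Of the 15310 genes for which an interval could be had, the 95% interval lay inside 2-fold either way in 732 and inside 4-fold in 6865. Of 23 tested cell cycle genes 22 were not called (median log2 fold change -0.16). MKI67, CCNA2, AURKA, PCNA and RRM2 were not matched by symbol and are not among them. MCM7, a helicase subunit of replication and the list's member with the most counts, stood at 58.6 and 44.6 CPM in peritoneum and 72.6 and 66.5 CPM in the neobladder (95% interval -0.37 to 1.23), below the native bladder at 134 and 116 CPM. AURKB, a mitotic kinase, was the 1 called, from 21.1 and 16.1 to 8.73 and 4.91 CPM (log2 fold change -1.44 ± 0.39, adjusted p = 0.024). By omission, AURKB had adjusted p = 0.0464, 0.244, 0.136 and 0.0582. None of the 12 tested mitochondrially encoded genes was called by edgeR or by DESeq2, 1 having an unadjusted p under 0.05 in edgeR (median log2 fold change 0.0029).

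All 24 tested nuclear genes of oxidative phosphorylation had both neobladder libraries above both peritoneum libraries, the state of 5863 of the 16549 tested genes, and the median log2 fold change was 1.08. By the test 5 were higher, none when any 1 library was left out, 9 by DESeq2 and 18 at most in the other settings. In the main fit 20.8% of the list was called higher, against 12.4% of all tested genes. CYC1, a cytochrome of complex III, stood at 100.14 and 83.7 CPM in peritoneum and 313 and 298 CPM in the neobladder (log2 fold change 1.73 ± 0.45, adjusted p = 0.0211). For CYC1, omission gave adjusted p = 0.0995, 0.0996, 0.108 and 0.139. Glycolysis and hypoxia genes were higher in 4 of 15 cases and lower in 1 (median 1.12; higher by omission in 2, 1, 1 and 1, and in 7 by DESeq2), HK2, a hexokinase, from 19.4 and 6.95 to 126 and 249 CPM (log2 fold change 3.84 ± 0.64, adjusted p = 0.00341).

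Genes of immediate early response and heat shock, which respond quickly to growth factors, stress and tissue handling, were 1 list, higher in 14 of 27 cases and lower in 1 (median log2 fold change 1.60; higher by omission in 14, 6, 6 and 7). FOS rose from 12.3 and 28.7 to 1029 and 1266 CPM (log2 fold change 5.80 ± 0.54, adjusted p = 0.000228). JUNB rose from 9.78 and 4.81 to 131 and 166 CPM (log2 fold change 4.35 ± 0.42, adjusted p = 0.000186). EGR1 rose from 61.7 and 76.3 to 378 and 541 CPM (log2 fold change 2.74 ± 0.44, adjusted p = 0.00228). Native bladder held them higher still, FOS at 2037 and 1575 CPM and EGR1 at 1618 and 1035 CPM. The time between excision and RNA extraction is not stated, and its part in these values was not tested.

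Of the intestinal epithelium list, which could mark remaining ileal mucosa, 5 of 27 tested genes were higher than in peritoneum and 2 lower (median log2 fold change -0.09). The 25.9% called in all is near the 24.2% of all tested genes. The higher members named by the rule were GPA33, LGALS4 and HNF4A. GPA33, a surface antigen of gut epithelium, rose from 0.102 and 0.267 to 156 and 229 CPM (log2 fold change 9.90 ± 0.83, adjusted p = 3.73e-05), with 200.41 and 199 CPM in native bladder. LGALS4, a galectin of gut epithelium, rose from 0.815 and 1.96 to 818 and 689 CPM (log2 fold change 9.06 ± 0.59, adjusted p = 4.55e-05), with 321 and 399 CPM in native bladder, and the nuclear receptor HNF4A from 0 counts to 7.80 and 8.16 CPM (at least 56.0-fold higher, adjusted p = 0.000232), with 9.69 and 6.13 CPM there. The other 2, CDH17 and VIL1, were low, at most 15.5 CPM in a neobladder library (log2 fold changes 3.06 and 3.70, adjusted p = 0.0187 and 0.0196). Neither call held in every setting, and the VIL1 log2 fold change ran from 1.74 to 4.53 over the settings. Lower were LGR5, given above, and APOA1 (log2 fold change -2.24, adjusted p = 0.00933). The APOA1 call did not hold in every setting either. By omission 3, 6, 3 and 3 were higher.

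Some genes stood at like levels in peritoneum and neobladder and lower in native bladder. A rule picked genes with a symbol and a mean of at least 5 CPM in each group that were not called, differed by at most 2-fold, and were above both bladder libraries in all 4 libraries: 540 of 8238 eligible genes met it. Since the rule used these levels, they are given as a description. The lower level in native bladder was set by the rule. The genes it picked were not among the 16 called by edgeR between lined neobladder and native bladder. STEAP1, of a family of metal reductases, had the largest ratio of neobladder to bladder, at 9.47 and 4.99 CPM in peritoneum, 13.1 and 7.42 CPM in the lined neobladder and 1.05 and 0.897 CPM in native bladder. CCL21, the chemokine of lymphatic endothelium, stood at 28.6 and 124, 71.3 and 79.7 and 12.2 and 6.80 CPM in the same order, the peritoneum libraries bracketing the neobladder libraries. GCNT1, which builds branched O-glycans, stood at 48.5 and 95.7, 69.5 and 56.2 and 10.3 and 10.011 CPM. NELL2, a secreted glycoprotein, and EBF3, a transcription factor, followed the same order, NELL2 at 18.2 and 39.4, 24.3 and 15.9 and 3.80 and 4.26 CPM and EBF3 at 19.4 and 19.1, 10.8 and 9.09 and 1.86 and 5.01 CPM. The intervals remained broad. The 95% interval of the log2 difference from peritoneum was -1.05 to 0.65 for GCNT1, -0.77 to 1.78 for STEAP1 and -2.06 to 0.17 for EBF3, and over the 540 genes it lay inside 4-fold in 533 and inside 2-fold in 115. The others of the first 12 were the interferon-induced ISG12(A), the lipid enzymes FAXDC2 and LIPC, the growth factor signal inhibitor SPRY4, the phosphatase DUSP18, the adhesion protein KIRREL1 and the ubiquitin ligase FBXO32.

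**Figure D5:**
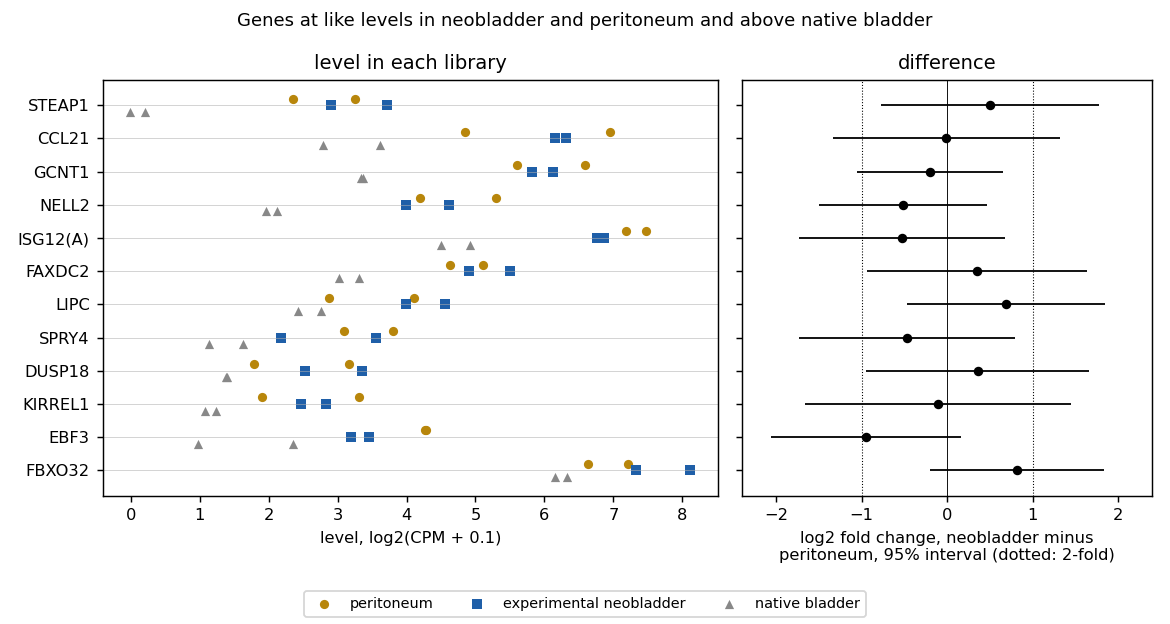
The 12 genes at like levels in lined neobladder and peritoneum with the largest ratio of neobladder to native bladder. The left panel gives log2(CPM + 0.1) with 1 point per library for peritoneum (gold circles), lined neobladder (blue squares) and native bladder (grey triangles), and the right panel the log2 fold change of neobladder over peritoneum with its 95% interval and dotted lines at 2-fold. All intervals include 0, and each reaches past 2-fold on at least 1 side.

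By edgeR 16 genes were called between lined neobladder and native bladder (0.0967% of 16549), and the count was 3 and 7 without experimental replicate 1 and 2, 4 and 5 without native bladder replicate 1 and 2, and 249 by DESeq2. Both comparisons use the same neobladder libraries, and the peritoneal levels of the 16 are a description. In 14 of the 16 the neobladder was also called against peritoneum, in the same direction as against bladder. CYP1B1, a monooxygenase induced through the aryl hydrocarbon receptor, stood at 27.1 and 31.4 CPM in peritoneum, 163 and 366 CPM in the neobladder and 28.0 and 13.971 CPM in bladder (log2 fold change 3.18 ± 0.47, adjusted p = 0.0016 against peritoneum). FAM180A, a secreted protein, was lowest in the neobladder, at 1.02 and 0.835 CPM against 55.9 and 54.8 CPM in peritoneum and 16.6 and 9.34 CPM in bladder (log2 fold change -5.88 ± 0.45, adjusted p = 4.55e-05), and NEIL2, a DNA repair glycosylase, at 1.86 and 0.927 CPM against 9.78 and 12.9 and 19.9 and 27.3 CPM (log2 fold change -3.01 ± 0.48, adjusted p = 0.00168). The 2 that were not called against peritoneum were MCM3, a replication helicase subunit, and PLET1, a surface protein of epithelial progenitors. MCM3 stood at 11.104 and 8.20 CPM in peritoneum and 8.14 and 7.23 CPM in the neobladder (95% interval of the log2 difference -1.26 to 0.61), with 86.1 and 51.3 CPM in bladder. PLET1 stood at 2.45 and 0.535 CPM, 0.763 and 0.464 CPM and 28.3 and 25.4 CPM in the same order (95% interval -2.98 to 0.50).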

How the data were processed

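The deposited files hold whole-number counts per gene for each library. Libraries were made from total RNA with Smart-seq2 and TruSeq, per the labels' protocols. Trim Galore, HISAT2, HTSeq 0.11.1 and the Sscrofa11.1 build are named in the submitters' processing notes. Mapping and counting settings, strand included, are not given in the sources used here, so reads of overlapping genes cannot be told apart.

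Counts of all 8 libraries were fitted in edgeR 4.0.16 (R 4.3.3, limma 3.58.1) with TMM scaling, its low-count filter and 1 term per group, leaving 4 residual degrees of freedom and a biological coefficient of variation of 0.382. Alternatives were DESeq2 1.42.0, other scalings, no filter, the compared groups alone, a test against 1.5-fold, a replicate block and leaving out each library. On simulated counts of 15846 genes, 41 of 100 genes changed 4-fold and 90 of 100 changed 16-fold were called, none in the wrong direction, and 7 unchanged genes were called. Every simulated gene had the same dispersion, 0.146, the groups had like means apart from the changed genes, and libraries were drawn independently. The real data differ in these respects, so those figures need not hold for them.

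Named genes were the 12 largest called changes in each direction with a mean of 5 CPM or more, up to 4 members of each of 34 lists by p plus the one with the most counts, the HOX genes, the markers, the 12 first genes at like levels and those called against bladder. The comparison, lists and rule were chosen with earlier results of these data known. Genes outside the rule, chosen after their values were seen, were UPK1A, UPK1B, KRT7, TP63, FOXA1, ALOX12B, CDH1, SCNN1A, ALDH1A2, DEFB1, C1QA, C1QB, CALD1, WNT2B, CDH2, HAS1, LUM, TSKU, COL1A1, PPARG, ACSL1, ME1, ELOVL6, C3, FOXF2, CDH17, VIL1, FABP6, ACTA1 and CALB2. Positions are those of RefSeq for Sscrofa11.1. Some genes that the rule picks are not reported here.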

Additional observations from a re-analysis of the deposited data

How the results depend on the processing

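Between lined neobladder and peritoneum, fitting the compared groups alone called 6215 genes, 3248 higher and 2967 lower, and leaving out 1 library called 1762 to 2394, with 1123 to 1276 higher and 639 to 1140 lower. The other settings stayed within 1.5 times of the 3998: 4925 by DESeq2, 4038 with DESeq2's size factors, 2900 with library totals alone, 4570 without the low-count filter and 3084 against a 1.5-fold change. In none of the settings run was one of the 3998 genes called in the opposite direction. Beyond the named genes, the sign of calls that were lost was not counted. Library totals alone moved the all-gene median from -0.0061 to -0.14 on the log2 scale and the share of calls that were higher from 51.1 to 47.4%. Between lined neobladder and native bladder, where 16 genes were called, the count was 249 by DESeq2, 5 with library totals alone, 352 without the filter, 453 with the compared groups alone, 10 against a 1.5-fold change and 3 to 7 when 1 library was left out; the cause was not tested. With replicate number as a block, 3657 genes were called against peritoneum, 1908 higher and 1749 lower, and 14 against native bladder. Among the genes named as called against peritoneum, the block left HOXB13, CALD1 and ELOVL6 uncalled (adjusted p = 0.0505, 0.0613 and 0.0719), it called none of the 2 lower genes of the aryl hydrocarbon list, and it called 3 nuclear genes of oxidative phosphorylation in place of 5. The shared numbers are not stated to pair the samples, and deviations of same-numbered libraries had a correlation of -0.037. Library totals alone left MEIS1, COL4A1, CD163, AURKB, CDH17, WNT2B, CALD1, ALOX12B and ELOVL6 uncalled. A test against a 1.5-fold change left MEIS1, CFD, COL4A1, AURKB, CALD1, ALOX12B and ELOVL6 uncalled. No filter did so for COL4A1, CALD1 and ELOVL6, and DESeq2's size factors for ELOVL6. EBF3 was called with the compared groups alone. A level under 3 counts, which is 0.254 to 0.306 CPM in these 4 libraries, could not be told from 0 at this depth.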

Other observations

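Nerve and glia genes were lower in 4 of 11 tested cases and higher in 1 (median log2 fold change -3.17; 3, 2, 3 and 4 were lower without experimental replicate 1, experimental replicate 2, peritoneum replicate 1 and peritoneum replicate 2). DESeq2 called 7 lower. UCHL1, a ubiquitin hydrolase of neurons, fell from 21.6 and 24.951 CPM in peritoneum to 1.61 and 2.23 CPM in the lined neobladder (log2 fold change -3.60 ± 0.44, adjusted p = 0.000482). NCAM1, a neural adhesion molecule, was not called, at 33.5 and 34.0 CPM against 10.3 and 15.1 CPM (log2 fold change -1.41 ± 0.51, adjusted p = 0.0707), but was called by DESeq2, without the low-count filter and with the compared groups alone.

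Of 11 skeletal muscle genes 2 were higher and 1 lower (median log2 fold change 0.0037), and the 27.3% called is near the 24.2% of all tested genes. Leaving out 1 library in the same order left 1, 1, 1 and 1 higher and 0, 0, 0 and 1 lower. TNNI2, a troponin of fast muscle, rose from 0.509 and 0.535 to 13.7 and 12.5 CPM (log2 fold change 4.62 ± 0.75, adjusted p = 0.00172), and PYGM, muscle glycogen phosphorylase, was not called, at 53.8 and 36.9 CPM against 39.2 and 51.7 CPM (log2 fold change 0.00 ± 0.42, adjusted p = 0.999). None of 4 red blood cell genes was called by edgeR or DESeq2, and 0 had an unadjusted p under 0.05 in edgeR. HBB, beta-globin, stood at 28.5 and 22.2 CPM in peritoneum and 15.5 and 19.5 CPM in the neobladder (log2 fold change -0.54 ± 0.77, adjusted p = 0.649).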
